A study of Mus musculus with 6 samples.

Results

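The 10 autosomal histone lysine demethylases Kdm1a, Kdm2a, Kdm2b, Kdm3a, Kdm4a, Kdm4b, Kdm4c, Kdm5a, Kdm5b and Kdm6b were followed in colonic crypts of mice given an EZH2 inhibitor. They were chosen by name from the 18049 genes in the table, by a rule that uses no measured value but that was set with earlier results of these data known. Total RNA-Seq was done on crypts from 3 Control and 3 GSK503 mice, with 1 library per mouse. All 6 mice were of the same engineered strain, in which Cre driven by the Villin promoter acts in intestinal epithelium and the TgfβRII gene carries a humanized poly(A) repeat. Villin-Cre is not active in stromal and immune cells, so what it deletes is lost in the epithelium of the crypt and not in the cells around it. Both groups were fed a Western-style diet. The GSK503 mice received the EZH2 inhibitor GSK503 at 200 μg/kg over 9 weeks, and the Control mice received the vehicle.

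Lysine methylation of histones is removed by enzymes of separate chemistries. LSD1, the product of Kdm1a, is a flavin-dependent oxidase that acts on mono- and dimethylated H3K4. The JmjC proteins, which the other 9 genes encode, are dioxygenases that use iron, oxygen and 2-oxoglutarate, so they also depend on oxygen and on mitochondrial metabolites. GSK503 inhibits EZH2, the methyltransferase that writes H3K27me3, and the KDM6 enzymes remove the same mark. In the intestine, LSD1 is known for its part in the maturation of epithelial lineages, and KDM5B for its part in stem and progenitor cells.

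The estimated totals of the libraries lay between 108160374 and 135083181 counts, and each demethylase was covered by 2430 to 17167 estimated counts per library. Values below are estimated counts scaled by the TMM method to CPM (TMM-scaled values). The 5 epithelial markers summed to 8884 to 9757 in Control mice and 9418 to 10779 in GSK503 mice, with none at 0. The makeup of the crypts moved with the groups. The summed goblet cell markers were 10217 to 18398 in Control and 31437 to 49998 in GSK503 mice, with all 7 genes higher and 3 called, and the enteroendocrine markers were 199 to 247 against 125 to 160, with all 6 lower and 3 called. Summed smooth muscle markers were 20.3 to 80.4 in Control and 4.07 to 110 in GSK503 mice, with GSK503 mice 1 and 2 low and GSK503 mouse 3 high. B cell markers were 22.0 to 75.0 against 1.95 to 61.4, macrophage markers 25.2 to 44.2 against 5.82 to 60.3, T cell markers 7.28 to 11.2 against 6.39 to 8.18, fibroblast markers 59.7 to 76.0 against 25.1 to 110, and endothelial markers 3.27 to 5.46 against 1.78 to 7.44. Of the 61.4 for B cell markers in GSK503 mouse 3, Jchain made up 57.9. All 6 B cell genes had a negative log2FC, none was called, and their mean log2 value was lower in GSK503 mice without overlap. The proliferation markers summed to 1286 to 1455 in Control and 1038 to 1249 in GSK503 mice, without overlap, although 3 of the 6 had a higher and 3 a lower log2FC and none was called. The absorptive colonocyte markers summed to 3147 to 3468 against 2268 to 5494. Among the cell type markers, only the B cell gene Cd79a was at 0 in any mouse. The groups also differed in sex-linked expression. Xist lay at 0.42 to 0.94 in Control and 825 to 1236 in GSK503 mice, so sex and treatment cannot be told apart. The part of these differences in the results below was not tested. In RNA from whole crypts, fewer cells of a type and less RNA per cell cannot be told apart.

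None of the 10 demethylases was called between GSK503 and Control mice by limma at an adjusted p below 0.05, where 107 of 16670 tested genes, or 0.642%, were called (83 higher and 24 lower). The count of all genes called was 44 without Control mouse 2, 49 without Control mouse 3, 63 without GSK503 mouse 1, 29 without GSK503 mouse 2 and 216 without GSK503 mouse 3, and 261 (83 higher and 178 lower) when the libraries were scaled by size alone. None of the 10 was called in any of these fits. At an unadjusted p below 0.05, 2 of the 10 passed, against 13.3% of all genes. The groups did not overlap for 2 of the 10, against 19.1% of all genes, and in both the GSK503 mice were the lower ones, against 9.22% of all genes. The mean was lower in GSK503 mice for 8 of the 10, against 51.1% of all genes, where a higher or lower mean, here and in the lists below, is that of the log2 values. The median log2FC of the 10 was -0.065, and that of all genes tested was -0.0053.

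The fit gave a narrow interval for each difference, which covers only the spread between mice within the groups. It covers neither the choice of scaling nor sex, which cannot be told apart from treatment. The median log2FC of the 10 was -0.065, and -0.18 with scaling by library size alone. The 95% confidence intervals of the 10 genes together spanned log2FC -0.33 to 0.38, which is 79.7% to 130.2% of the Control level, with standard errors between 0.067 and 0.13. The GSK503 mean lay between 89.0% and 106% of the Control mean. The coefficient of variation within a group was 2.24% to 17.0%. The values of each gene are plotted by mouse and the intervals beside those of the X-linked demethylases.

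**Figure D1:**
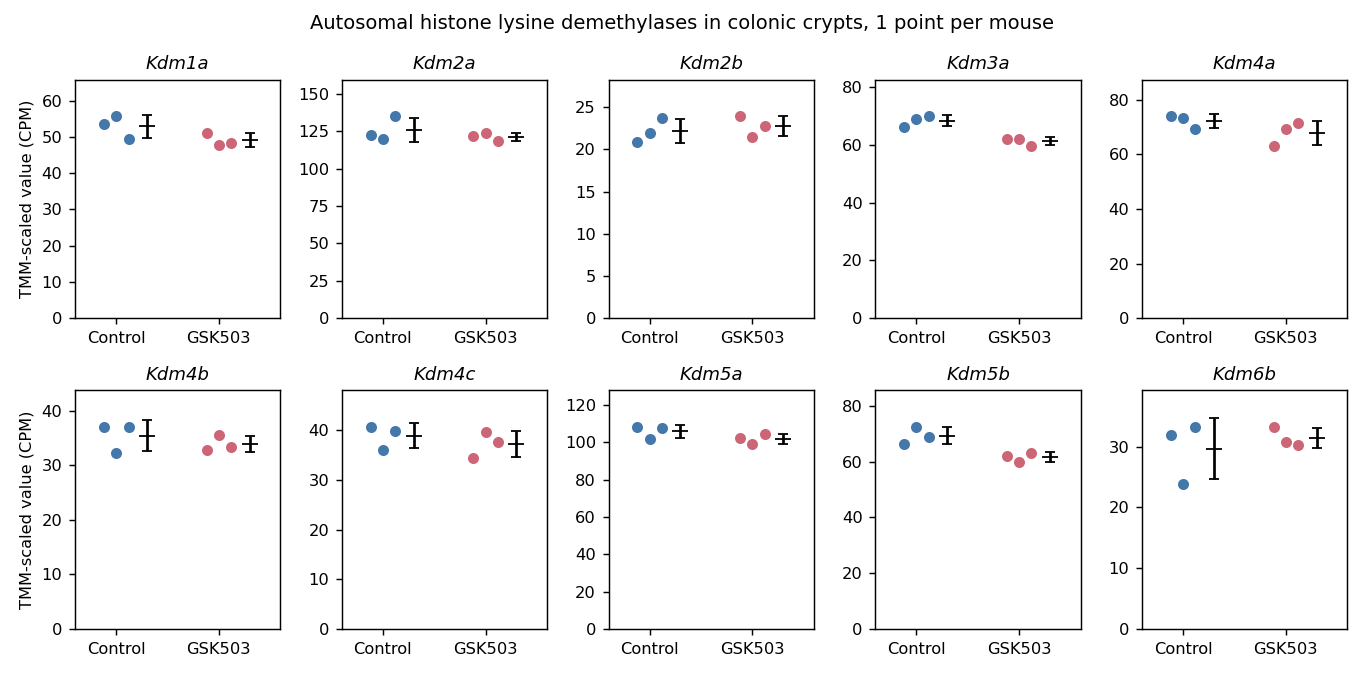
TMM-scaled value (CPM, y axes from 0) of each of the 10 autosomal demethylases in 3 Control (blue) and 3 GSK503 mice (red), 1 point per mouse, with the group mean and SD in black. The groups are apart for Kdm3a and Kdm5b and overlap for the other 8 genes.

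**Figure D2:**
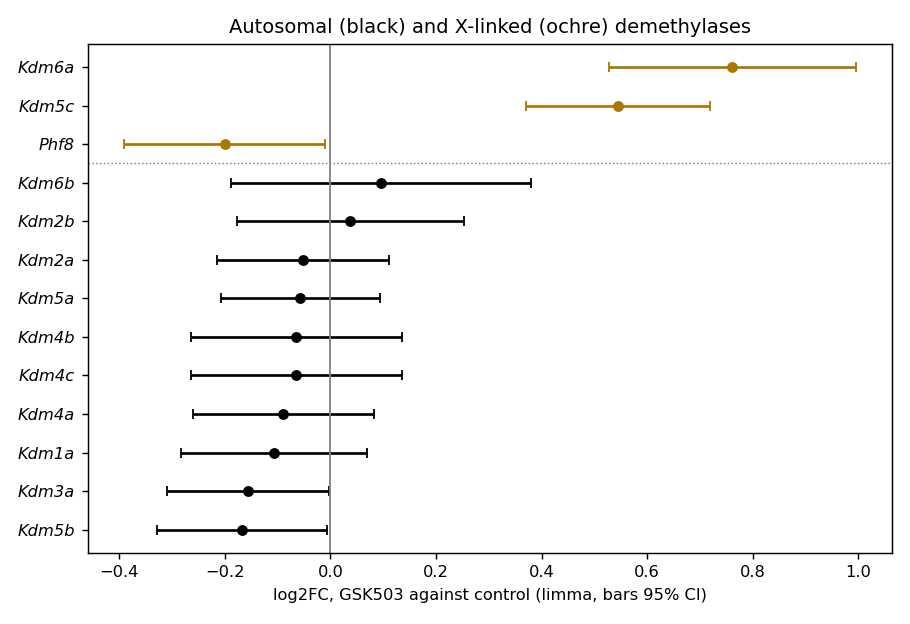
log2FC of GSK503 against Control (x axis) from limma, with 95% confidence intervals, for the 10 autosomal demethylases (black) and 3 X-linked ones (ochre). The black points lie between -0.17 and 0.096, while Kdm5c and Kdm6a lie at 0.54 and 0.76.

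Of the autosomal H3K4 demethylases among the 10, the difference was largest for Kdm5b, a JmjC enzyme that removes tri- and dimethylation from H3K4 (chr1:134487875-134563030, plus strand, GRCm39). Its values were 66.5, 72.5 and 68.9 in Control and 62.2, 59.7 and 63.1 in GSK503 mice. Every GSK503 mouse lay below every Control mouse, and the mean was 89.0% of the Control mean. The log2FC was -0.17 (SE 0.071, 95% CI -0.33 to -0.0071), with an unadjusted p of 0.0423 and an adjusted p of 0.353 by limma, so the difference did not pass correction over all genes. An exact two-sided permutation test gave p = 0.1, the smallest that 3 mice against 3 can give. The log2FC lay between -0.20 and -0.13 when any single mouse was left out, and the adjusted p over 19 alternatives between 0.083 and 0.717. The unadjusted p by limma was below 0.05 in 12 of the 19, and in 2 of the 6 that left out a single mouse. GSK503 mouse 3, which was high in smooth muscle markers, had 63.1 and GSK503 mice 1 and 2, which were low in them, had 62.2 and 59.7. Goblet cell markers, enteroendocrine markers, the summed proliferation markers and Xist differed between the groups without overlap. So did the mean log2 value of the B cell markers, although their sum overlapped. The part of any of these in the Kdm5b values was not tested.

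Kdm5a, the second autosomal KDM5 gene (chr6:120341068-120421535, plus strand), was the more abundant of the pair in values per library. It measured 108.3, 102.0 and 107.7 in Control and 102.2, 98.9 and 104.4 in GSK503 mice. The groups overlapped, with a log2FC of -0.057 (SE 0.067, adjusted p = 0.768 by limma). Kdm1a, which encodes LSD1 (chr4:136277846-136330106, minus strand), measured 53.7, 55.8 and 49.5 in Control and 51.2, 47.8 and 48.4 in GSK503 mice. The groups overlapped by a single mouse of each, since only GSK503 mouse 1 lay above Control mouse 3. The log2FC of Kdm1a was -0.11 (SE 0.078, 95% CI -0.28 to 0.070, adjusted p = 0.605 by limma).

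The log2 ratio of Kdm5a to Kdm5b in the same mouse was 0.70, 0.49 and 0.64 in Control and 0.72, 0.73 and 0.73 in GSK503 mice. It differed by 0.11 on average, with no overlap and an exact permutation p of 0.1, and the SD of the GSK503 mice was 0.0054 beside 0.11 for Control. Per kilobase of the Ensembl canonical transcript, Kdm5a and Kdm5b together summed to 17.6 ± 0.116 (SD, n = 3) in Control and 16.4 ± 0.455 in GSK503 mice. The groups of this sum did not overlap, with an exact permutation p of 0.1, the smallest possible here.

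Among the H3K9 demethylases, Kdm3a (chr6:71565956-71610472, minus strand), which removes mono- and dimethylation from H3K9 and is a known target of the hypoxia-inducible factors, measured 66.2, 69.0 and 69.9 in Control and 62.1, 62.1 and 59.7 in GSK503 mice. Every GSK503 mouse lay below every Control mouse, at 89.7% of the Control mean. The log2FC was -0.16 (SE 0.069, 95% CI -0.31 to -0.0023), with an unadjusted p of 0.0473 and an adjusted p of 0.367 by limma. The exact permutation test gave p = 0.1, again the smallest possible here. Its log2FC lay between -0.18 and -0.14 when any single mouse was left out, and its adjusted p over 19 alternatives lay between 0.0749 (scaling by library size alone) and 0.677. Its unadjusted p by limma was below 0.05 in 10 of the 19, and in 0 of the 6 that left out a single mouse.

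The KDM4 enzymes remove tri- and dimethylation from H3K9 and H3K36. Kdm4a (chr4:117994154-118037251, minus strand) measured 73.9, 73.1 and 69.2 in Control and 62.9, 69.1 and 71.3 in GSK503 mice, with a log2FC of -0.089 (adjusted p = 0.661 by limma). Only GSK503 mouse 1 was well below the Control range. Kdm4b (chr17:56632913-56714338, plus strand) measured 37.1, 32.3 and 37.1 in Control and 32.8, 35.5 and 33.3 in GSK503 mice. Kdm4c (chr4:74160734-74324757, plus strand) measured 40.7, 36.1 and 39.9 in Control and 34.4, 39.6 and 37.7 in GSK503 mice. The groups overlapped for both, with a log2FC of -0.064 for Kdm4b (adjusted p = 0.808 by limma) and -0.065 for Kdm4c (adjusted p = 0.807 by limma). The 3 KDM4 genes summed per kilobase to 32.1 ± 1.14 (SD, n = 3) in Control and 30.4 ± 1.68 in GSK503 mice, with overlap.

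The KDM2 enzymes act on H3K36, and Kdm2b also recruits a Polycomb complex (PRC1.1) to unmethylated CpG islands. Kdm2a (chr19:4364447-4448313, minus strand) had the highest values of the 10, at 122.8, 120.0 and 135.1 in Control and 122.1, 123.7 and 118.3 in GSK503 mice. Its log2FC was -0.052 (SE 0.072, adjusted p = 0.810 by limma), and the groups overlapped. Kdm2b (chr5:123008720-123127886, minus strand) had the lowest values, at 20.8, 22.0 and 23.7 in Control and 23.9, 21.5 and 22.8 in GSK503 mice. Its log2FC was 0.038 (SE 0.096, adjusted p = 0.908 by limma), and -0.0055 without Control mouse 1. The 2 KDM2 genes summed per kilobase to 18.1 ± 1.12 (SD, n = 3) in Control and 17.7 ± 0.316 in GSK503 mice, with overlap.

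Kdm6b, the autosomal enzyme that removes the H3K27 methylation written by EZH2 (chr11:69289334-69304501, minus strand), measured 31.9, 23.9 and 33.2 in Control and 33.3, 30.7 and 30.3 in GSK503 mice. Control mouse 2 lay well below the other 5 mice, which spanned 30.3 to 33.3. The log2FC was 0.096 (SE 0.13, 95% CI -0.19 to 0.38, adjusted p = 0.798 by limma), and it was -0.052 without Control mouse 2. Ezh2 itself measured 46.7, 37.4 and 46.5 in Control and 36.6, 35.2 and 36.3 in GSK503 mice, and Control mouse 2 was again the lowest of its group. Its log2FC was -0.27 (adjusted p = 0.291 by limma). The log2 ratio of Kdm6b to Ezh2 in the same mouse was -0.55, -0.65 and -0.48 in Control and -0.14, -0.19 and -0.26 in GSK503 mice. The ratio was higher in all GSK503 mice, by 0.36 on average, with an exact permutation p of 0.1. Not every ratio computed within a mouse separated the groups. Those of Kdm4a to Kdm4b, Kdm2a to Kdm2b and Kdm3a to Kdm3b overlapped (exact permutation p = 0.8, 0.3 and 0.3). How often such ratios separate the groups over all genes was not computed.

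The levels of the 10 genes relative to each other could be compared only per length. In Control mice, the value per kilobase of canonical transcript was 17.2 ± 1.04 (SD, n = 3) for Kdm1a, 15.4 ± 0.544 for Kdm4a, 14.2 ± 0.404 for Kdm3a and 14.0 ± 0.892 for Kdm2a. Kdm2a, at 13.3 to 15.0, overlapped between mice with Kdm3a and with Kdm4a, at 14.8 to 15.8, and so did not differ from either beyond their spread. A middle group followed, with 9.68 ± 0.317 for Kdm5a, 9.16 ± 0.582 for Kdm4c, 7.94 ± 0.348 for Kdm5b and 7.49 ± 0.583 for Kdm4b, in which Kdm5a overlapped with Kdm4c and Kdm5b with Kdm4b. Kdm6b at 4.46 ± 0.758 and Kdm2b at 4.09 ± 0.264 were the lowest by this length and overlapped. The order depended on the length used: by all exonic bases of a gene, Kdm4a came first, Kdm1a second, Kdm4c moved from place 6 to place 9, and Kdm6b moved from place 9 to place 6. Summed over the 10 genes, the value per kilobase was 103.6 ± 1.44 in Control and 97.9 ± 0.384 in GSK503 mice, which is 94.5% of Control. The groups of this 10-gene sum did not overlap (exact permutation p = 0.1, the smallest possible here), while none of the 10 genes was called.

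The KDM5 and KDM6 families each have members on the X and Y chromosomes, and all 4 of these were called. Kdm5c, the X-linked H3K4 demethylase, measured 145, 153 and 164 in Control and 229, 234 and 212 in GSK503 mice (log2FC 0.54, SE 0.077, adjusted p = 0.0157 by limma). Kdm6a, the X-linked H3K27 demethylase, measured 37.4, 46.6 and 48.7 in Control and 78.0, 74.6 and 71.2 in GSK503 mice (log2FC 0.76, SE 0.10, adjusted p = 0.0157 by limma). Both were higher without overlap, and both genes are known to be transcribed from each X chromosome in females. Phf8, an X-linked H3K9 demethylase, measured 40.1, 38.3 and 44.4 against 34.8, 35.0 and 36.8 (log2FC -0.20, adjusted p = 0.349 by limma). Their Y-linked counterparts were near 0 in GSK503 mice. Kdm5d was at 91.7, 87.5 and 86.1 in Control and at 0.042, 0 and 0.20 in GSK503 mice (adjusted p = 1.35e-06 by limma), and Uty was at 42.5, 45.7 and 53.7 against 0.67, 1.07 and 1.08 (adjusted p = 9.27e-07 by limma). These values move with Xist, and sex and treatment cannot be told apart here. Kdm5c was called in 12 and Kdm6a in 14 of 18 alternatives.

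The balance between autosomal and sex-linked members differed between the groups. The log2 ratio of Kdm6a to Kdm6b was 0.23, 0.96 and 0.55 in Control and 1.23, 1.28 and 1.23 in GSK503 mice, and that of Kdm5c to Kdm5a was 0.42, 0.59 and 0.61 against 1.16, 1.24 and 1.02. Neither ratio overlapped between groups, each with an exact permutation p of 0.1. Per kilobase, the 4 KDM5 genes summed to 42.4 ± 0.671 (SD, n = 3) in Control and 36.4 ± 0.657 in GSK503 mice, and without Kdm5d to 31.4 ± 1.0 against 36.4 ± 0.669. The direction of the KDM5 sum thus turned on whether the Y-linked gene was counted. The 3 KDM6 genes summed to 19.7 ± 2.10 in Control and 16.2 ± 0.706 in GSK503 mice, while Kdm6a and Kdm6b alone summed to 11.1 ± 1.05 against 16.0 ± 0.746. Kdm6b made up 22.6% ± 3.70 of the KDM6 sum in Control and 29.2% ± 0.456 in GSK503 mice, although its own level overlapped.

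**Figure D3:**
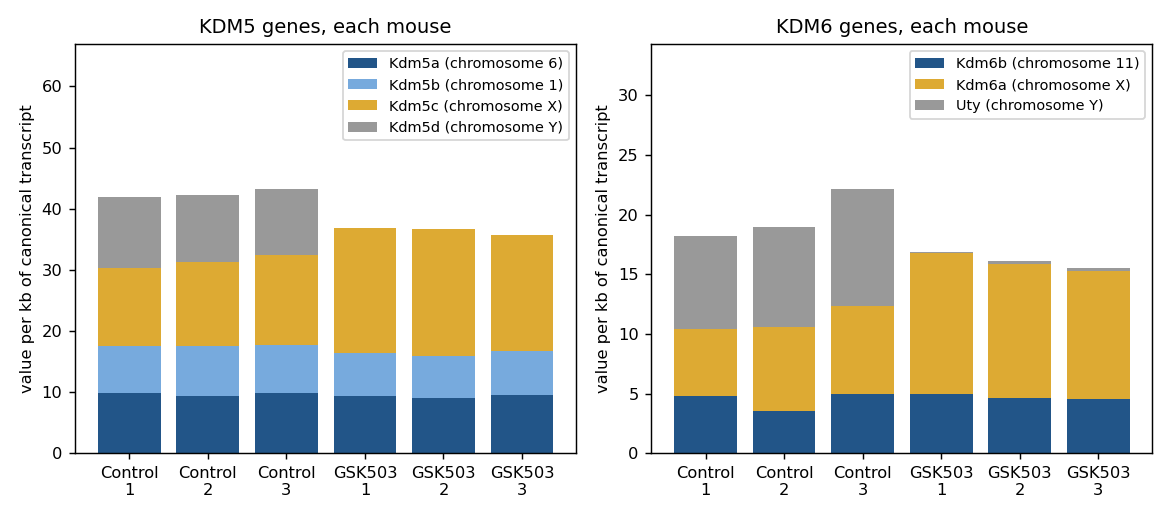
TMM-scaled value per kilobase of canonical transcript (y axis from 0), stacked by gene, for the KDM5 genes (left) and KDM6 genes (right) in each of the 6 mice. The blue autosomal layers keep nearly the same height, with Kdm6b lowest in Control 2, while the ochre X-linked layers are taller and the grey Y-linked layers all but absent in the GSK503 mice.

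A further 10 autosomal demethylases (Kdm1b, Kdm3b, Jmjd1c, Kdm4d, Kdm7a, Phf2, Kdm8, Riox1, Riox2 and Hr) gave no call either. Among them 8 had a negative log2FC, against 51.1% of all genes, and the values lay between -0.28 and 0.21 with adjusted p between 0.216 and 0.966 by limma. Their median log2FC was -0.12. Kdm4d, counted among the 8, was near 0 in every mouse, at 0.17, 0.12 and 0.079 in Control and 0, 0.41 and 0.058 in GSK503 mice. Its log2FC was -0.12 (SE 0.64), while its arithmetic mean was higher in GSK503 mice. Kdm3b, Jmjd1c and Hr, at -0.26, -0.28 and -0.24, lay lower than Kdm5b and Kdm3a, at -0.17 and -0.16. The groups did not overlap for Kdm3b and Riox2, with the GSK503 mice lower in both. Over all genes, 19.1% did not overlap and 9.22% had all GSK503 mice below all Control mice. Kdm1b and Kdm8 were the ones with a positive log2FC, at 0.091 and 0.21. Lower values were thus not particular to Kdm5b and Kdm3a.

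The partners of the demethylases in complexes were read from lists. Of the 13 genes of the LSD1-CoREST complex none was called, 5 had a higher and 8 a lower mean, and the median log2FC was -0.027. Gfi1, a zinc finger repressor that brings LSD1 to its targets and is also known in secretory progenitors, had the smallest p of the list (log2FC 0.68, adjusted p = 0.162 by limma), in crypts whose goblet cell markers were higher too. Hmg20b, a DNA-binding subunit, had a log2FC of 0.20 (adjusted p = 0.423 by limma). Of 9 PRC1.1 partners of Kdm2b none was called, 6 had a lower mean and the median was -0.065, led by the X-linked corepressors Bcor (-0.23, adjusted p = 0.262 by limma) and Bcorl1 (-0.33, adjusted p = 0.275 by limma). Of 9 SIN3 partners of Kdm5a and Kdm5b none was called, 7 had a lower mean and the median was -0.054, with the chromodomain protein gene Morf4l1 at 0.14 and the deacetylase gene Hdac1 at -0.21 (adjusted p = 0.418 and 0.433 by limma).

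The methyltransferases that oppose these enzymes were not called either. Of 6 H3K4 methyltransferases 3 had a higher and 3 a lower mean (median log2FC -0.043), with Kmt2c at -0.27 and Setd1b at 0.32 (adjusted p = 0.286 and 0.325 by limma). Of 6 H3K9 methyltransferases 5 had a lower mean (median -0.086), with the X-linked Suv39h1 at -0.31 and Setdb2 at -0.27 (adjusted p = 0.207 and 0.291 by limma). Of 5 H3K36 methyltransferases 4 had a lower mean (median -0.19), with Ash1l at -0.25 and Setd2 at -0.20 (adjusted p = 0.227 and 0.317 by limma). Both H3K27 methyltransferases had a lower mean, and Ezh1, the relative of Ezh2, had a log2FC of -0.24 (adjusted p = 0.240 by limma).

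Because JmjC enzymes use oxygen and 2-oxoglutarate, genes of these pathways were listed as well. Of 15 genes of 2-oxoglutarate, succinate and fumarate metabolism none was called, and 9 had a higher and 6 a lower mean (median log2FC 0.052). The isocitrate dehydrogenase genes Idh3a and Idh1, whose products make 2-oxoglutarate, were at 0.17 and -0.18 (adjusted p = 0.296 and 0.341 by limma). Of 15 hypoxia-inducible genes 13 had a higher mean (median 0.14) and 1 rose past the test. That gene, Egln3, a prolyl hydroxylase that marks the hypoxia-inducible factors for decay, measured 12.9, 12.6 and 15.3 in Control and 26.7, 28.4 and 19.5 in GSK503 mice (log2FC 0.85, SE 0.15, adjusted p = 0.0471 by limma). It was called in 7 of 19 alternatives, with an adjusted p between 0.0101 and 0.237. With scaling by library size alone the hypoxia list had 9 genes higher and 6 lower (median 0.028) and the metabolic list 3 higher and 12 lower (median -0.062), where the median of all genes was -0.12. Kdm3a, itself a known target of the hypoxia-inducible factors, was lower in every GSK503 mouse and was not called (adjusted p = 0.367 by limma). Whether hypoxia had a part in any of these values was not tested.

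**Figure D4:**
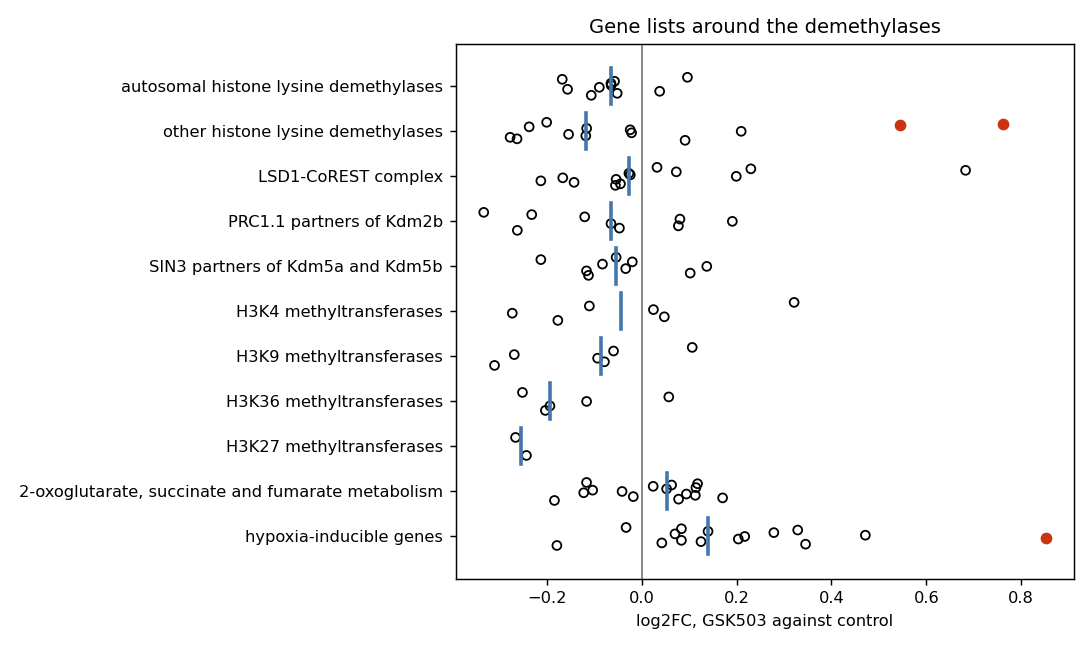
log2FC of GSK503 against Control (x axis) for each gene of the lists, with called genes in solid red, other genes as open circles and the median of each list as a blue bar. Kdm5d and Uty, near 0 in GSK503 mice, lie off the scale and are not drawn but enter their median. Called genes appear only among the other demethylases and the hypoxia-inducible genes (Egln3).

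The sequence upstream of the members was read for ACGTG, a form of the core of the hypoxia response element, on either strand. The window was the 250 bases before the start of each gene's canonical transcript (GRCm39, GENCODE annotation). Other forms of the core were not searched. ACGTG occurred in 5 of the 10 members' windows, and in 19.4% of the 16071 tested genes with a window. A CACGTG palindrome, the E-box of the Myc family, counts as 2 overlapping matches. The windows of the members were 47.6% to 72.8% GC with a median of 56.0%, beside a median of 55.6% over all windows, and held a median of 17.5 CpG dinucleotides beside 11. Kdm6b had the fewest, with 3, and Kdm2a the most, with 36. Shown are the windows of the pair of genes whose groups did not overlap, Kdm3a (chr6:71609975-71610224, minus strand) and Kdm5b (chr1:134487647-134487896, plus strand), and those of the KDM4 genes with CACGTG, Kdm4b (chr17:56632663-56632912, plus strand) and Kdm4c (chr4:74169873-74170122, plus strand). Each is written 5′ to 3′ along the gene, with matches in capitals.
Kdm3a: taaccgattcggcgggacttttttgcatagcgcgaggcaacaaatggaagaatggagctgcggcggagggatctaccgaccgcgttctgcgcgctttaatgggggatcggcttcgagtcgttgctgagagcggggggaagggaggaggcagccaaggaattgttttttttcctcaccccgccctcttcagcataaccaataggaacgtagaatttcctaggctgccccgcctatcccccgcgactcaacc
Kdm5b: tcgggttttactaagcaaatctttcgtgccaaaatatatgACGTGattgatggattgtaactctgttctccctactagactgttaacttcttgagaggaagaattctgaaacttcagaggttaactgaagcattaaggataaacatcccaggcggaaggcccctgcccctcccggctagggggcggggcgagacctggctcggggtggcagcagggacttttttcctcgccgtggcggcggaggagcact
Kdm4b: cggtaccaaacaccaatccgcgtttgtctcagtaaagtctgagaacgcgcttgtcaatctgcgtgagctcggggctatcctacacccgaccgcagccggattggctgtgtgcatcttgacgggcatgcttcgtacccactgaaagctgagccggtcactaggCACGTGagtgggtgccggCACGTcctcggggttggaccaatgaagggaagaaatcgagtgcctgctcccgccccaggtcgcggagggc
Kdm4c: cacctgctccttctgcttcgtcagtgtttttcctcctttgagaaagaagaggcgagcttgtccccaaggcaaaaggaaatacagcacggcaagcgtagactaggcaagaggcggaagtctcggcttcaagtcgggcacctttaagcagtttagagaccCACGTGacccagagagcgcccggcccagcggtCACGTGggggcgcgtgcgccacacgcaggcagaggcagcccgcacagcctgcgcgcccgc

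The Kdm3a window held no match, the Kdm5b window 1, which began 210 bases before the transcript start, and those of Kdm4b and Kdm4c held 3 and 4. The windows of Kdm2a, Kdm2b, Kdm3a and Kdm4c lay wholly inside the annotated genes, whose outer starts are further upstream. Sequence before those outer starts was not read, so matches there would be missed. A match says only that these letters are present. The genes shown were picked partly by whether their groups overlapped, after the values had been seen. The part of this form of the core in the values was not tested.

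The genes whose 6 values most resembled those of the 3 members with the smallest p were found by the mean absolute difference of log2 values after each gene was centred over the 6 mice. For Kdm5b they were Zxdc (0.0173), Ankib1 (0.0204) and Togaram1 (0.0230). For Kdm3a they were Thumpd3 (0.00822), Zbtb41 (0.0146) and Cdc27 (0.0147), and for Kdm1a they were Fkbp5 (0.0230), Aplf (0.0254) and Mrpl35 (0.0256). None of these genes was called, with adjusted p between 0.335 and 0.708 by limma, and with 6 mice a close profile is a description only.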

How the data were processed

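Total RNA-Seq of colonic crypts was taken from 3 Control and 3 GSK503 mice of the same strain, grouped by the sample labels. For the deposited signal table, the authors used STAR for alignment to GRCm39, RSEM for estimated counts of genes, and TMM scaling in edgeR. Between 81.3% and 83.6% of low values were whole multiples (within 0.05) of what 1 count is worth, which gave the estimated totals. A count of 3 was worth 0.0228 to 0.0271. Such totals cover counting error only.

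limma (version 3.58.1, R 4.3.3) was run with lmFit and eBayes with an intensity trend on log2(value + 0.1), over 16670 genes at 0.1 or more in at least 3 mice (1379 left out), with Benjamini-Hochberg adjustment over all of them. A gene was called at adjusted p below 0.05. Fold changes are on the log2(value + pseudocount) scale. Exact permutation tests were two-sided. The members and lists were chosen with earlier results of these data known, and no p was adjusted over a list alone. All 10 members, the X- and Y-linked demethylases, called genes of each list or, where none was called, its 2 genes with the smallest p, and the 3 nearest profiles of the 3 members with the smallest p were named. The 250-base windows upstream and the single values of the further autosomal demethylases were added after the values had been seen. Gene coordinates and lengths came from GENCODE for GRCm39, where 95.4% of symbols matched 1 gene. On simulated data for this comparison (16524 genes), all 200 changed genes (100 by 1 and 100 by 2 on the log2 scale) were called with 7 false calls, and none of 16539 genes was called without a change. Smaller changes, such as those of the members, were not simulated. No 2 libraries were identical. RSEM divides reads shared between related genes, so values of Kdm5c with Kdm5d and of Kdm6a with Uty are not fully separate. Whether the libraries came from separate litters is not given in the sources used here. The gene that Villin-Cre deletes in this strain is not reported here. Other data of the series were not analysed here.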

Additional observations from a re-analysis of the deposited data

How the results depend on the processing

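None of the 10 autosomal demethylases was called in any alternative, including an adjusted p below 0.1. The count of all genes called, 107, became 261 with scaling by library size alone, 70 with no filter, 16 with no intensity trend, 328 at an adjusted p below 0.1, and 29 to 216 when single mice were left out (44 without Control mouse 2, 49 without Control mouse 3, 63 without GSK503 mouse 1, 29 without GSK503 mouse 2 and 216 without GSK503 mouse 3). With scaling by library size alone 31.8% of the called genes were higher, against 77.6%, all 10 of these demethylases had a lower mean, the median of all genes was -0.12 and that of the 10 was -0.18, and Kdm2b and Kdm6b turned to -0.076 and -0.018. Kdm2b lay between -0.0055 and 0.086 and Kdm6b between -0.052 and 0.18 when single mice were left out. The cause was not tested. The numbers of the mice did not pair them (same-number correlations 0.032, -0.13 and -0.12), and with the number as a replicate block 33 genes were called and none of the 10. With that block, with no intensity trend or with robust empirical Bayes in limma, none of the 10 had an unadjusted p below 0.05. Over the values of all named genes in these alternatives, 574 kept their direction and side of the threshold, 22 (of Kdm5c, Kdm6a and Egln3) no longer passed it and 4 (of Kdm2b and Kdm6b) reversed. With 3 mice in each group, a difference inside the intervals given could go uncalled. So could a larger one, because a call required an adjusted p below 0.05 over all 16670 genes.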
